A study of Mus musculus with 8 samples.

Results

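The 9 genes described here, Otx2, Hesx1, Pou3f1, Zic2, Foxd3, Sox3, Sall2, Fst and Fgf5, encode transcription factors and secreted proteins of the formative and early post-implantation epiblast. They were listed by symbol, and all probe sets annotated with that symbol alone were used, which gave 13 of 34945 such probe sets and 9 of 18193 genes. Mouse embryonic stem cells (ESCs) were grown on gelatine in serum-free, feeder-free 2i medium, which holds LIF, the MEK inhibitor PD0325901 at 1 μM and the GSK3 inhibitor CHIR99021 at 3 μM. In released cells (Resc, 3 arrays), 60 h with 64 μM of 10058-F4, a small molecule that disrupts the pairing of MYC with MAX, were followed by 48 h in 2i medium without it. Inhibitor-treated cells (MYCi, 2 arrays) received 64 μM of the compound for 60 h, and DMSO cells (3 arrays) received its solvent for 60 h. Released cells were thus 48 h longer in culture than both other groups, and withdrawal and time in culture cannot be told apart. The ESC line is not given in the labels. Nor do they state that the arrays of a group stem from independent cultures; each p-value is relative to the variation among these arrays, part or all of which may be technical.

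Naive ESCs resemble the pre-implantation epiblast and are held there by 2i medium, since MEK inhibition blocks the FGF signal that drives cells onward. In the formative phase that follows, OTX2 and POU3F1 (OCT6) appear and help to redirect OCT4 to new enhancers, and FGF5, a secreted growth factor, is a classical marker of the transition. ZIC2, FOXD3, SOX3 and SALL2 are further transcription factors of pluripotent and early neural cells, HESX1 is a homeodomain repressor of the anterior neural plate, and FST (follistatin) binds and blocks activins.

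Expression is given on a log2 scale, with 1 value for each probe set on each array. For genes with several probe sets the 1 with the highest mean was kept, and the other is described beside it. A difference is given as log2 with its moderated standard error and was called at a limma adjusted p under 0.05, adjusted over all 18193 genes. Arrays of 1 group correlated at 0.9977 to 0.9982 across genes, and arrays of different groups at 0.9794 to 0.9962. The 10 pluripotent stem cell markers checked, among them Pou5f1, Sox2, Nanog, Lin28a and Utf1, had a mean level of 10.64 to 10.68 on the Resc arrays, 10.25 to 10.26 on the MYCi arrays and 10.68 to 10.70 on the DMSO arrays. Their median difference between MYCi and DMSO cells was -0.18, against -0.058 for all genes. Lin28a averaged 5.01 in MYCi and 7.84 in DMSO cells, and Utf1 7.08 and 8.88. Zfp42 (10.74 and 10.05) and Fbxo15 (11.71 and 11.09) went the other way. The difference between the 3′ and 5′ Gapdh control probe sets, a measure of RNA integrity, lay between -0.133 and -0.117 on the Resc arrays, -0.216 and -0.148 on the MYCi arrays, and -0.130 and -0.108 on the DMSO arrays; its part in the results was not tested.

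After 60 h with the inhibitor, 6 of the 9 genes were lower than with DMSO and none was higher: Hesx1, Otx2, Pou3f1, Zic2, Sall2 and Foxd3. Over all genes, 22.3% were called lower, 19.2% higher and 41.5% in either direction. For 7 of the 9 genes both MYCi arrays lay below every DMSO array, as they did for 35% of all genes, while 60.5% of all genes were without overlap in either direction. The median difference of the 9 genes was -0.44, against -0.058 for all genes. Counted by probe set, 7 of 13 were called, all lower, against 37.3% of all probe sets.

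After 48 h without the inhibitor the 9 genes took different courses. Relative to DMSO cells, 2 of the 9 were lower in released cells (Otx2 and Hesx1), against 4.01% of all genes, and 2 were higher (Pou3f1 and Fst), against 4.66%, so that 4 of 9 were called, against 8.66% of all genes. Arrays were without overlap for 5 of the 9, against 28.6% of all genes, and 2 of these 5 were lower, against 14% of all genes. The median was 0.059, against 0.0018 for all genes, and 4 of 13 probe sets were called, against 6.63% of all probe sets. Relative to MYCi cells, 5 of the 9 were higher in released cells (Pou3f1, Zic2, Fst, Foxd3 and Sox3), against 22.7% of all genes, and 1 was lower (Otx2), against 19.2%, with 41.9% of all genes called in either direction. Arrays were without overlap for 7 of the 9, against 61.9% of all genes, and 1 of these 7 was lower, against 25.7%. The median was 0.30, against 0.061 for all genes, and 7 of 13 probe sets were called, against 36.8% of all probe sets.

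The 3 comparisons share arrays, and their values are given side by side. In bulk RNA, fewer cells of a kind and less RNA per cell cannot be told apart. Beside the lower values of the 6 genes in MYCi cells, the mean level of 12 trophectoderm markers was 5.21 to 5.30 on the Resc arrays, 6.52 to 6.67 on the MYCi arrays and 5.19 to 5.27 on the DMSO arrays. The keratin genes Krt18 (4.996 ± 0.15), Krt19 (4.94 ± 0.15) and Krt8 (3.24 ± 0.086) differed most between MYCi and DMSO cells in that list and weigh on its mean. The median difference of the 12 markers was 0.36. Of them 7 were called higher, against 19.2% of all genes, and 5 were not called. Cdx2 averaged 4.73 in MYCi and 4.93 in DMSO cells, and Tfap2c 9.45 and 9.25. The part of these markers in the results was not tested.

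**Figure D1:**
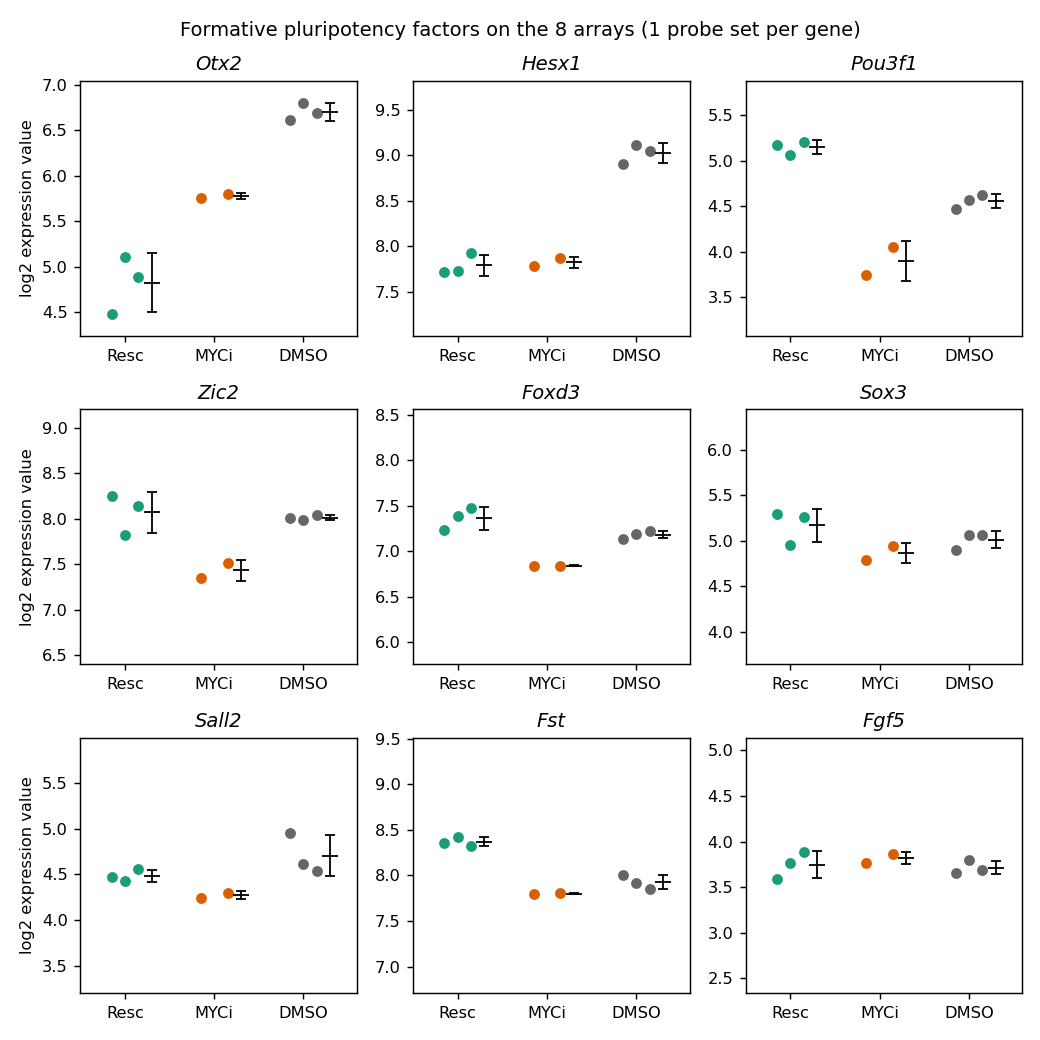
Log2 expression values of the 9 genes (vertical axes, each spanning 2.8 log2 units) on the Resc, MYCi and DMSO arrays (dots), with the mean and SD of each group beside them. Otx2 and Hesx1 lie lower on all Resc and MYCi arrays than on any DMSO array, while Pou3f1 and Fst lie highest on the Resc arrays.

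Otx2, the homeodomain factor that opens the formative programme, fell with the inhibitor and was lower still after its removal. Its values were 4.47, 5.11 and 4.88 on the Resc arrays, 5.75 and 5.80 on the MYCi arrays, and 6.61, 6.80 and 6.68 on the DMSO arrays. No 2 groups overlapped, and the order from low to high was Resc, MYCi, DMSO. The group means were 4.82 ± 0.32 (SD, n = 3) in Resc cells, 5.78 ± 0.029 (SD, n = 2) in MYCi cells and 6.70 ± 0.095 (SD, n = 3) in DMSO cells. Otx2 was thus 1.90-fold lower in MYCi than in DMSO cells (-0.92 ± 0.15; limma adjusted p = 0.000751) and 3.67-fold lower in released than in DMSO cells (-1.88 ± 0.14; limma adjusted p = 5.68e-05). Between released and MYCi cells it was 1.94-fold lower in the released cells (-0.95 ± 0.15; limma adjusted p = 0.000599).

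The fall of Otx2 in released cells was the largest among all 18193 genes of that comparison. It was also at place 1 from the lowest without genes of low level, with the probe sets of the other genes averaged, and without each single Resc or DMSO array. Among all 34945 probe sets it was at place 4. With the inhibitor still present it was at place 392, and the spread of its Resc arrays, with an SD of 0.32, was the widest of any of the 9 genes in any group.

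Hesx1, a paired-like homeodomain repressor required for forebrain and pituitary development, was lower than in DMSO cells both with the inhibitor and after its removal. It measured 7.71, 7.73 and 7.92 on the Resc arrays, 7.78 and 7.86 on the MYCi arrays, and 8.90, 9.11 and 9.05 on the DMSO arrays. The Resc and MYCi arrays overlapped, and all 5 lay below every DMSO array. Hesx1 was 2.29-fold lower in MYCi than in DMSO cells (-1.20 ± 0.090; limma adjusted p = 4.21e-06) and 2.35-fold lower in released than in DMSO cells (-1.23 ± 0.080; limma adjusted p = 3.52e-05). Released and MYCi cells differed by -0.033 ± 0.090 (95% interval -0.23 to 0.17; limma adjusted p = 0.798), which was not called. It was at place 167 from the lowest of 18193 genes with the inhibitor and at place 9 after release. Without each single Resc or DMSO array its place after release lay between 8 and 13.

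**Figure D2:**
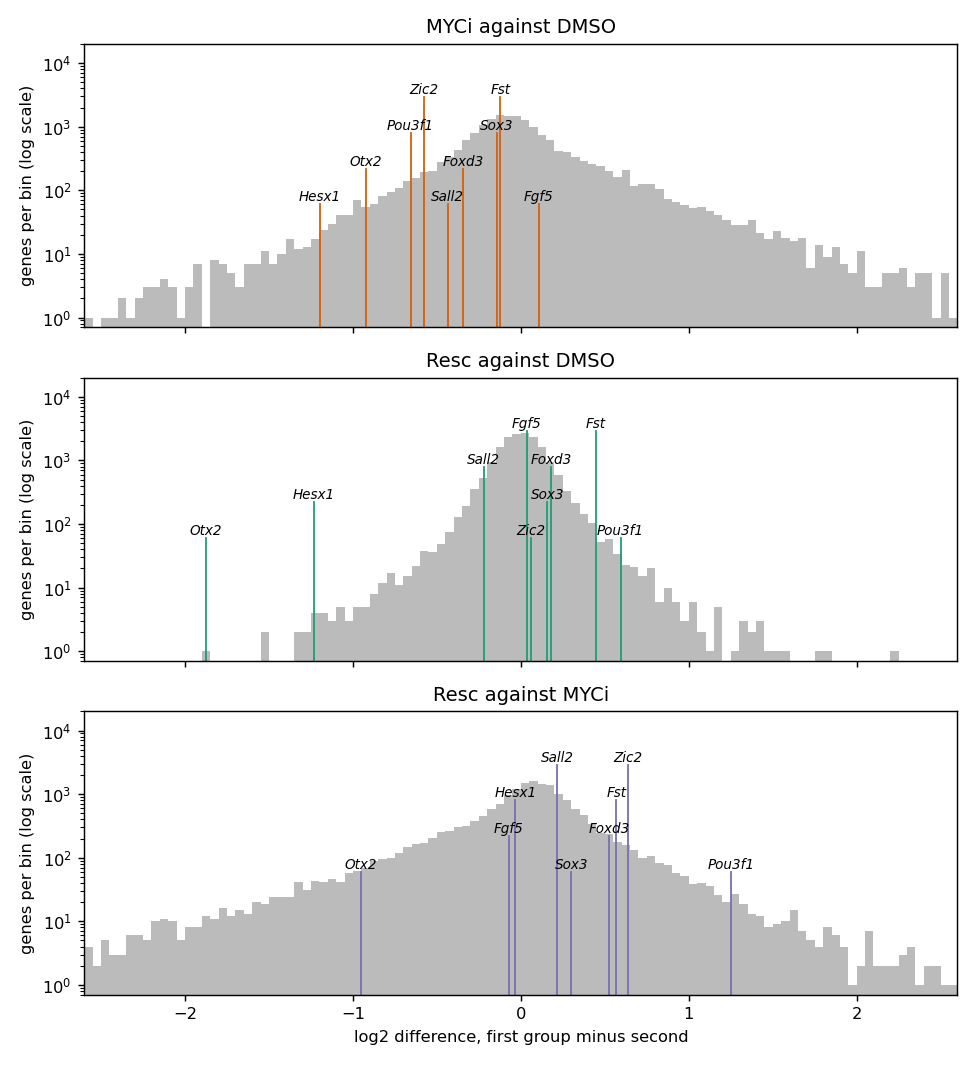
Number of genes (vertical axis, log scale) by log2 difference (horizontal axis, bins of 0.05; differences beyond ±2.6 are not drawn) in each comparison, with the 9 genes marked by lines. Otx2 at -1.88 and Hesx1 at -1.23 stand in the lower tail of all genes between Resc and DMSO cells, while the other 7 genes lie between -0.22 and 0.59.

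Pou3f1, the POU-domain factor OCT6, was lower than in DMSO cells with the inhibitor and higher after its removal on the kept probe set. Its values there were 5.18, 5.06 and 5.21 on the Resc arrays, 3.74 and 4.05 on the MYCi arrays, and 4.47, 4.57 and 4.62 on the DMSO arrays. The 3 groups did not overlap, and the order from low to high was MYCi, DMSO, Resc. It was 1.58-fold lower in MYCi than in DMSO cells (-0.66 ± 0.097; limma adjusted p = 0.000372) and 1.51-fold higher in released than in DMSO cells (0.59 ± 0.086; limma adjusted p = 0.00277). Between released and MYCi cells the difference was 2.38-fold, higher in released cells (1.25 ± 0.097; limma adjusted p = 4.62e-06). The signal in MYCi cells was low, and the 3.74 of MYCi replicate 1 lay within the range of the kept Fgf5 probe set, 3.59 to 3.88. The second Pou3f1 probe set was flatter, with values of 4.43, 4.30 and 4.42 on the Resc arrays, 4.14 and 4.20 on the MYCi arrays, and 4.40, 4.30 and 4.33 on the DMSO arrays. On it MYCi cells differed from DMSO by -0.18 ± 0.073 (limma adjusted p = 0.0891) and released cells by 0.039 ± 0.066 (limma adjusted p = 0.796), neither called, and only the difference between released and MYCi cells was called (0.21 ± 0.073; limma adjusted p = 0.0436). The rise above DMSO thus rests on 1 of the 2 probe sets. It was also called on their mean (0.32; limma adjusted p = 0.0148), which contains that probe set and is no separate support.

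Zic2, a zinc-finger factor that binds enhancers in pluripotent cells, and Foxd3, a forkhead factor needed to maintain the epiblast, were lower with the inhibitor than with DMSO, and higher in released than in MYCi cells. Zic2 measured 8.25, 7.82 and 8.14 on the Resc arrays, 7.35 and 7.51 on the MYCi arrays, and 8.01, 7.98 and 8.04 on the DMSO arrays. Both MYCi arrays lay below all others, and the Resc arrays spread around the DMSO arrays. Zic2 was 1.49-fold lower in MYCi than in DMSO cells (-0.58 ± 0.11; limma adjusted p = 0.00253) and 1.55-fold higher in released than in MYCi cells (0.64 ± 0.11; limma adjusted p = 0.00136). Released and DMSO cells differed by 0.059 ± 0.10 (95% interval -0.17 to 0.29; limma adjusted p = 0.786).

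Foxd3 measured 7.23, 7.38 and 7.48 on the Resc arrays, 6.84 and 6.83 on the MYCi arrays, and 7.14, 7.19 and 7.22 on the DMSO arrays. The order from low to high was MYCi, DMSO, Resc, with no overlap between groups. It was 1.27-fold lower in MYCi than in DMSO cells (-0.34 ± 0.079; limma adjusted p = 0.00568) and 1.44-fold higher in released than in MYCi cells (0.52 ± 0.079; limma adjusted p = 0.000422). Although all Resc arrays lay above all DMSO arrays, the difference of 0.18 ± 0.071 was not called (limma adjusted p = 0.166).

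RefSeq promoter windows were found for 5 of the 9 genes (Otx2, Hesx1, Foxd3, Sall2 and Fgf5, 9 windows in all), and the 250 bases before each start were searched. The motif CACGTG, the canonical E-box bound by MYC with MAX, reads the same on both strands and was found in 1 of the 9 windows, that of Foxd3, 217 bases before the start. Over all 32851 promoter windows of the same length, 6.02% hold it. The motif TAATCC, the core bound by OTX2 and related homeodomains, or GGATTA on the other strand, was found in 1 of the 9 windows, that of the Otx2 start whose window spans chr14:48665110-48665359 (minus strand), 211 bases before it, against 6.25% of all windows. The 2 motifs did not overlap. The windows of Foxd3 (chr4:99656049-99656298, plus strand), of the Otx2 start farthest upstream (chr14:48667645-48667894, minus strand) and of Hesx1 (chr14:27000112-27000361, plus strand), all on GRCm38.p6, are shown to set a gene that was higher in released than in MYCi cells beside the 2 genes that were lower in released than in DMSO cells. Each runs 5′ to 3′ on the strand of its gene, and capitals mark the E-box.
Foxd3: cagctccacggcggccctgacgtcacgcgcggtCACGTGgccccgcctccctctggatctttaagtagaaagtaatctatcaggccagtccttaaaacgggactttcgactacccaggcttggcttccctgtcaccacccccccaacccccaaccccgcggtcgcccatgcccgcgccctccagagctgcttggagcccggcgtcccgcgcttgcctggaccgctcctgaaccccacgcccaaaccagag
Otx2: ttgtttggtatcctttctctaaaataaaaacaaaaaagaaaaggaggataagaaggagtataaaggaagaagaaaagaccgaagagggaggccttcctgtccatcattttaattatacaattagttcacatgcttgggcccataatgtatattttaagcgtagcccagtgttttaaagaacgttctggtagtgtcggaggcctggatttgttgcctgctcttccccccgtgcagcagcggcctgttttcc
Hesx1: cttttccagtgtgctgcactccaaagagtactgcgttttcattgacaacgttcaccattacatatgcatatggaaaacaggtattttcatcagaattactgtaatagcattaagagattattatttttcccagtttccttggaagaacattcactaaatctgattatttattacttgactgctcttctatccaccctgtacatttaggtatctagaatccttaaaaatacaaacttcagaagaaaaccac
The Foxd3 window had a GC content of 65.6%, the Otx2 window shown 42.0% and that of Hesx1 34.0%, and the median over all windows was 52.4%. The Otx2 windows not shown had 49.2%, 48.4% and 53.6%. The genes shown are not split by 1 comparison. Foxd3 was not called between released and DMSO cells, and Foxd3, Otx2 and Hesx1 were each lower in MYCi than in DMSO cells. A match of letters is a description and shows no binding.

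Sall2, a zinc-finger factor of the spalt family, was lower with the inhibitor. It measured 4.48, 4.43 and 4.56 on the Resc arrays, 4.24 and 4.30 on the MYCi arrays, and 4.96, 4.62 and 4.54 on the DMSO arrays. The Resc arrays lay between the other groups and overlapped the DMSO arrays, of which replicate 1 was the highest. Sall2 was 1.35-fold lower in MYCi than in DMSO cells (-0.44 ± 0.11; limma adjusted p = 0.0109), a call that ended without MYCi replicate 1 (limma adjusted p = 0.0712). Released cells differed from DMSO cells by -0.22 ± 0.10 (limma adjusted p = 0.234) and from MYCi cells by 0.22 ± 0.11 (limma adjusted p = 0.158), and neither was called. Without DMSO replicate 1 the difference between released and DMSO cells was -0.094.

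Sox3, an SRY-box factor of the SOX2 subfamily found in epiblast and neural progenitors, was called in 1 comparison. On the kept probe set it measured 5.29, 4.96 and 5.26 on the Resc arrays, 4.79 and 4.94 on the MYCi arrays, and 4.90, 5.06 and 5.06 on the DMSO arrays. The DMSO arrays overlapped both other groups. It was called between released and MYCi cells (0.30 ± 0.11; limma adjusted p = 0.0479), a call that ended under 14 of 19 alternatives, among them the replicate block (limma adjusted p = 0.117) and the second probe set (limma adjusted p = 0.420). MYCi and DMSO cells differed by -0.14 ± 0.11 (limma adjusted p = 0.328) and released and DMSO cells by 0.16 ± 0.097 (limma adjusted p = 0.377). These values moved with single arrays: the MYCi to DMSO difference was -0.066 without MYCi replicate 1 and -0.22 without MYCi replicate 2, and the released to DMSO difference was 0.096 without Resc replicate 1, 0.265 without Resc replicate 2 and 0.105 without DMSO replicate 1. The second probe set ran from 4.19 to 4.80 over the 8 arrays with no call in any comparison.

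**Figure D3:**
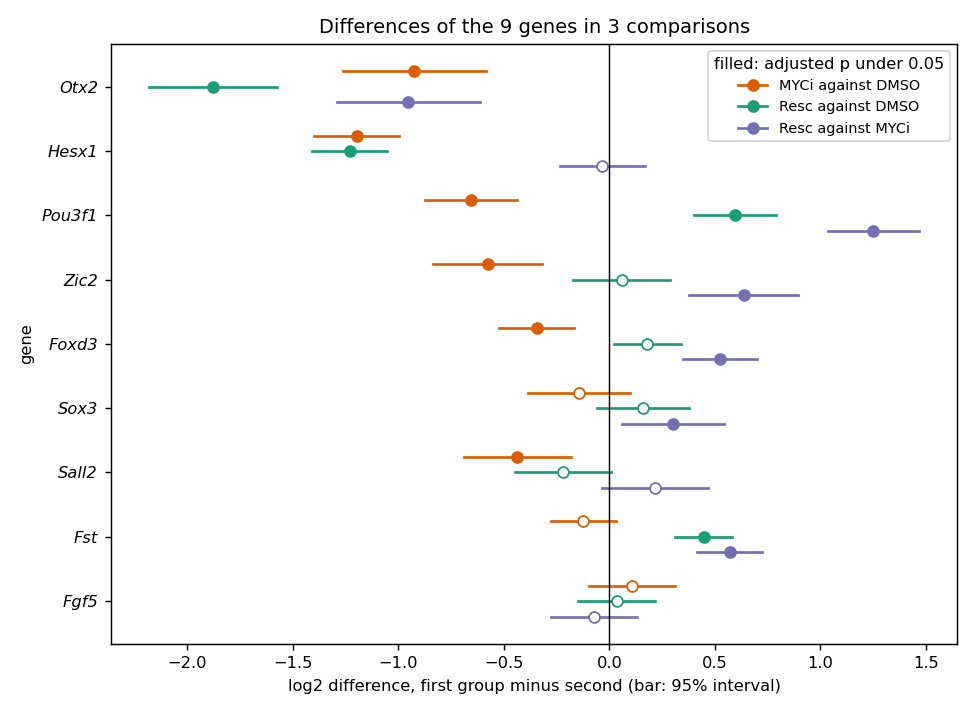
Log2 differences of the 9 genes (horizontal axis, points) with 95% intervals (bars) in the 3 comparisons, filled where the limma adjusted p was under 0.05. Otx2 lies below 0 in all 3 comparisons, Hesx1 lies near -1.2 against DMSO in both MYCi and Resc cells, and Pou3f1 changes side, with -0.66 for MYCi against DMSO and 0.59 for Resc against DMSO.

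Fst, the activin antagonist follistatin, was higher in released cells than in both other groups. The kept probe set measured 8.36, 8.43 and 8.32 on the Resc arrays, 7.80 and 7.81 on the MYCi arrays, and 8.005, 7.91 and 7.85 on the DMSO arrays. No Resc array overlapped either group, and the MYCi arrays lay just below the DMSO arrays. Fst was 1.36-fold higher in released than in DMSO cells (0.45 ± 0.061; limma adjusted p = 0.00197), and 1.48-fold higher in released than in MYCi cells (0.57 ± 0.068; limma adjusted p = 9.24e-05). MYCi and DMSO cells differed by -0.12 ± 0.068 (limma adjusted p = 0.183), which was not called. The second probe set measured 6.82, 7.07 and 6.99 on the Resc arrays, 6.39 and 6.37 on the MYCi arrays, and 6.66, 6.75 and 6.64 on the DMSO arrays. On this probe set the calls changed places: MYCi was lower than DMSO (-0.30 ± 0.085; limma adjusted p = 0.0182), and released against DMSO narrowly missed the threshold (0.28 ± 0.076; limma adjusted p = 0.0592). The order MYCi, DMSO, Resc from low to high was the same on both.

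Among 16 genes of the activin and BMP ligands, receptors and SMADs that follistatin bears on, 7 rose and 3 fell with the inhibitor (median 0.19), 3 rose and 2 fell in released against DMSO cells (median 0.014), and 4 rose and 8 fell in released against MYCi cells (median -0.17). Over all genes, 19.2% were called higher and 22.3% lower with the inhibitor. In released cells these shares were 4.66% and 4.01% against DMSO cells, and 22.7% and 19.2% against MYCi cells. Inhbb, which encodes the activin βB subunit that follistatin binds, was 2.56-fold higher in released than in DMSO cells (1.36 ± 0.085; limma adjusted p = 2.91e-05), with 6.13, 6.11 and 5.90 on the Resc arrays against 4.62, 4.83 and 4.63 on the DMSO arrays. Bmp4 rose with it in the released cells (0.79 ± 0.087). Smad3, a transducer of activin signals, was lower in MYCi than in DMSO cells (-0.58 ± 0.070) and in released than in DMSO cells (-0.27 ± 0.063). The activin receptor gene Acvr2a rose with the inhibitor (0.76 ± 0.069), as did Smad5 (0.86 ± 0.064) and Bmp2 (0.61 ± 0.099). Bmp2 was near the background, with 2.48, 2.49 and 2.78 on the DMSO arrays and 3.18 and 3.21 on the MYCi arrays. Bacterial Trpn control probe sets, without a target in mouse RNA, ran from 2.15 to 2.95.

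Fgf5 was not called in any comparison. The kept probe set measured 3.59, 3.76 and 3.88 on the Resc arrays, 3.77 and 3.87 on the MYCi arrays, and 3.66, 3.80 and 3.69 on the DMSO arrays, so all groups overlapped. MYCi and DMSO cells differed by 0.11 ± 0.091 (95% interval -0.098 to 0.31; limma adjusted p = 0.391), released and DMSO cells by 0.034 ± 0.081 (95% interval -0.15 to 0.22; limma adjusted p = 0.850), and released and MYCi cells by -0.072 ± 0.091 (95% interval -0.28 to 0.13; limma adjusted p = 0.571). The second probe set ran from 2.53 to 3.25 over the 8 arrays. Bacterial Trpn control probe sets, which have no target in mouse RNA, ran from 2.15 to 2.95, a range that overlaps the second Fgf5 probe set. On that probe set MYCi and DMSO cells differed by 0.00083 (95% interval -0.33 to 0.33), released and DMSO cells by 0.21 (95% interval -0.087 to 0.50), and released and MYCi cells by 0.21 (95% interval -0.12 to 0.54), none called.

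**Figure D4:**
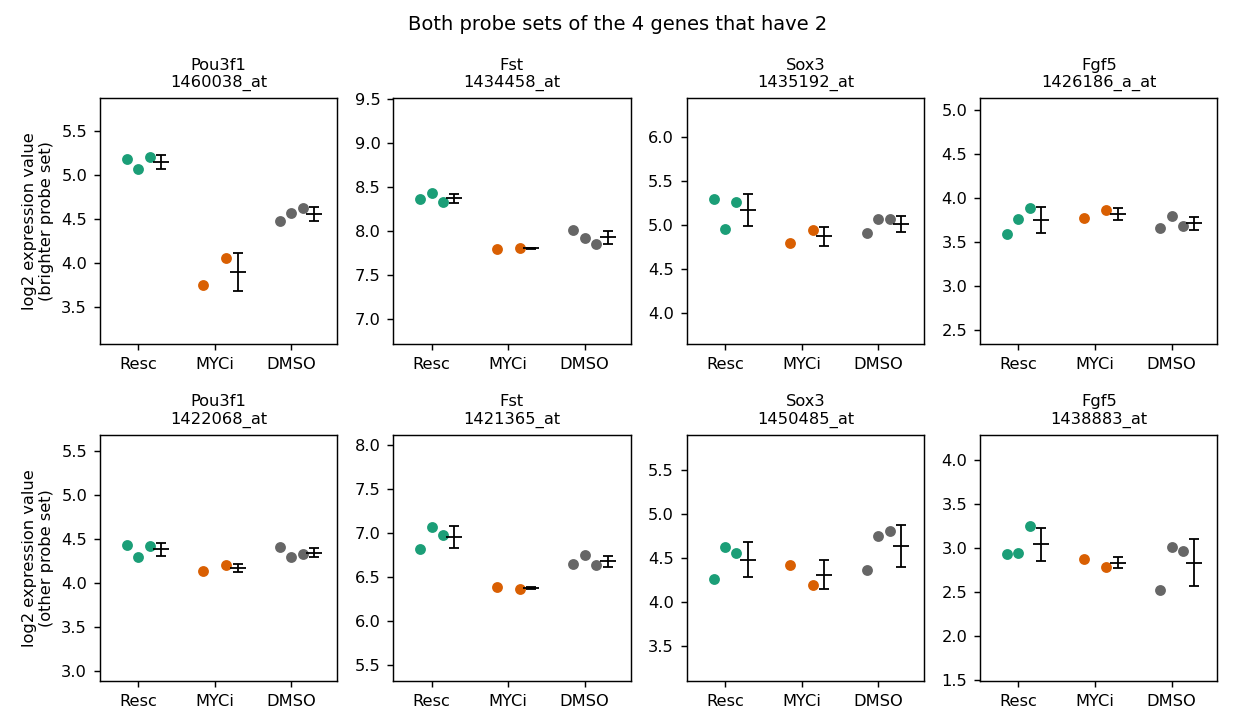
Log2 expression values (vertical axes, each spanning 2.8 log2 units) of both probe sets of Pou3f1, Fst, Sox3 and Fgf5 on the Resc, MYCi and DMSO arrays (dots), with the mean and SD of each group. The rise of Pou3f1 on the Resc arrays to 5.06 to 5.21 appears on the brighter probe set, while the other runs from 4.14 to 4.43 over all arrays, and both Fst probe sets are highest on the Resc arrays.

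Among 11 receptors and intracellular partners of FGF signalling, 4 rose and 1 fell with the inhibitor (median 0.089), 2 rose and none fell in released against DMSO cells (median 0.074), and 2 rose and 5 fell in released against MYCi cells (median -0.016). In these comparisons 19.2%, 4.66% and 22.7% of all genes were called higher, and 22.3%, 4.01% and 19.2% lower. Dusp6, which encodes the ERK phosphatase induced by FGF signals, followed the order of Pou3f1 and Fst, with 6.35, 6.56 and 6.54 on the Resc arrays, 4.79 and 4.82 on the MYCi arrays, and 5.87, 5.83 and 5.70 on the DMSO arrays. It was 1.61-fold higher in released than in DMSO cells (0.68 ± 0.075; limma adjusted p = 0.000592). The feedback inhibitor gene Spry2 took another course: it rose with the inhibitor (0.58 ± 0.064) and was still slightly higher in released than in DMSO cells (0.23 ± 0.058). Sos1 (0.49 ± 0.079) and Shc1 (0.45 ± 0.061), which couple receptors to RAS, rose with the inhibitor.

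Of 25 other formative and primed pluripotency genes, 3 rose and 9 fell with the inhibitor (median -0.12), 6 rose and 3 fell in released against DMSO cells (median 0.081), and 13 rose and 5 fell in released against MYCi cells (median 0.26). The shares of all genes called higher were 19.2%, 4.66% and 22.7% in these comparisons, and of those called lower 22.3%, 4.01% and 19.2%. Trh, which encodes thyrotropin-releasing hormone, fell 4.89-fold with the inhibitor (-2.29 ± 0.072) and rose 4.09-fold on release (2.03 ± 0.072). Grhl2, an epithelial transcription factor gene that opens formative enhancers, rose 2.75-fold with the inhibitor (1.46 ± 0.069) and was 2.31-fold lower in released than in MYCi cells (-1.21 ± 0.069). The ETS factor genes Etv4 (0.57 ± 0.073) and Etv5 (0.35 ± 0.062) were higher in released than in DMSO cells. Lin28a, whose product binds let-7 precursors, was 1.71-fold lower in released than in DMSO cells (-0.77 ± 0.084), and Sox4 1.51-fold lower (-0.59 ± 0.087). Utf1, a chromatin-associated factor of pluripotent cells, rose 3.48-fold in released against MYCi cells (1.80 ± 0.061), with 8.88, 8.89 and 8.88 on the Resc arrays, 7.11 and 7.06 on the MYCi arrays, and 8.81, 8.92 and 8.90 on the DMSO arrays.

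Of 17 naive pluripotency genes, 8 rose and 4 fell with the inhibitor (median 0.19), 3 rose and 1 fell in released against DMSO cells (median 0.052), and 6 rose and 8 fell in released against MYCi cells (median -0.15). For comparison, 19.2%, 4.66% and 22.7% of all genes were called higher in the 3 comparisons, and 22.3%, 4.01% and 19.2% lower. The 1 that was lower in released than in DMSO cells was Dppa3, an oocyte and early embryo factor that limits DNA methylation, with 7.55, 7.51 and 7.64 on the Resc arrays, 7.81 and 7.82 on the MYCi arrays, and 8.80, 8.98 and 8.89 on the DMSO arrays. It was lower in both MYCi (-1.08 ± 0.072) and released cells (-1.33 ± 0.065) than in DMSO cells. The genes higher in released than in DMSO cells were Tet2 (0.88 ± 0.055), a DNA demethylase gene, Nr0b1 (0.51 ± 0.067) and Prdm14 (0.25 ± 0.062).

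The lists overlap in a few genes, among them Zic5, which counts both above and here. Of 23 family relatives of the 9 genes, 2 rose and 7 fell with the inhibitor (median -0.13), 3 rose and 1 fell in released against DMSO cells (median 0.044), and 6 rose and 2 fell in released against MYCi cells (median 0.10). Among all genes, 19.2%, 4.66% and 22.7% were called higher in these comparisons, and 22.3%, 4.01% and 19.2% lower. Otx1, the relative of Otx2, was 1.30-fold higher in MYCi than in DMSO cells (0.38 ± 0.059), and in released cells it was 1.47-fold lower than in MYCi cells (-0.56 ± 0.059). Zic5 followed Zic2, lower in MYCi than in DMSO cells (-0.47 ± 0.081) and higher in released than in MYCi cells (0.62 ± 0.081). Foxd1, a relative of Foxd3, was 1.97-fold higher in released than in DMSO cells (0.98 ± 0.091) and 1.47-fold higher in MYCi than in DMSO cells (0.55 ± 0.10). Its signal was low, with 3.58, 3.40 and 3.23 on the DMSO arrays, below the kept Fgf5 probe set. Fstl1, which encodes a follistatin-like secreted protein, fell 2.90-fold with the inhibitor (-1.54 ± 0.082) and was 1.57-fold higher in released than in DMSO cells (0.65 ± 0.073). Sox1, a close relative of Sox3, was lower in released than in DMSO cells (-0.36 ± 0.074), and Sall3 was higher (0.32 ± 0.087; limma adjusted p = 0.0492).

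**Figure D5:**
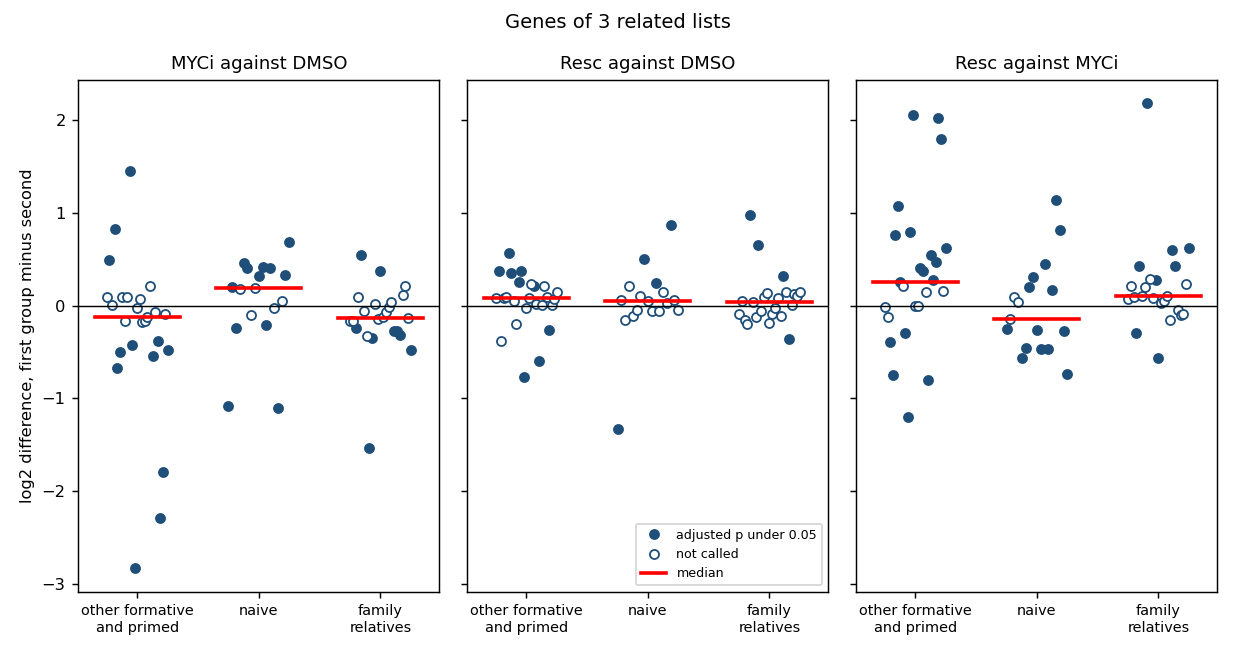
Log2 differences (vertical axis) of the genes of 3 related lists in the 3 comparisons, with each gene as a point, filled where the limma adjusted p was under 0.05, and the median of a list as a red line. The 25 other formative and primed genes have medians of -0.12, 0.081 and 0.26, and the 17 naive genes 0.19, 0.052 and -0.15, from left to right.

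The genes whose values over the 8 arrays were most like those of the 3 most variable genes were found by Pearson's r, which here mostly reflects the 3 group means. For Otx2 they were Fxyd6 (r = 0.987), Gpx6 (r = 0.986) and Gjb5 (r = 0.982) among the 1142 genes that varied enough to be compared (an SD of 50% of its own or more). Fxyd6 averaged 5.51 in Resc, 6.03 in MYCi and 6.81 in DMSO cells. For Hesx1 they were Mcf2l (r = 0.991), Dppa3 (r = 0.988) and Map7d1 (r = 0.988) among 2312 genes. For Pou3f1 they were Tmsb4x (r = 0.989), Rasip1 (r = 0.988) and Ano1 (r = 0.988) among 3249 genes, of which Rasip1 averaged 6.16 in Resc, 4.33 in MYCi and 5.41 in DMSO cells.

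Markers of other cell types were examined because several of the 9 genes are also expressed in neural tissue. Of 13 neural progenitor markers, 1 rose and 4 fell with the inhibitor and 0 rose and 3 fell in released against DMSO cells, and 2 rose and 1 fell in released against MYCi cells; their mean level was 4.53 to 4.61 on the Resc arrays, 4.53 to 4.57 on the MYCi arrays and 4.63 to 4.80 on the DMSO arrays. Map2 (-1.30 ± 0.11) and Tubb3 (-0.52 ± 0.070), both neuronal cytoskeleton genes, were lower in released than in DMSO cells, and higher in released than in MYCi cells (Map2 0.83 ± 0.12, Tubb3 0.87 ± 0.079). Irx3, another gene of that list, was highest with the inhibitor, averaging 3.97 in Resc, 6.18 in MYCi and 3.93 in DMSO cells. Of 12 trophectoderm markers, 7 rose and 0 fell with the inhibitor, 1 rose and 2 fell in released against DMSO cells, and 2 rose and 7 fell in released against MYCi cells. Of 11 mesoderm and primitive streak markers, 1 rose and 2 fell, 0 rose and 1 fell, and 4 rose and 1 fell in the same 3 comparisons, with mean levels of 4.79 to 4.81 on the Resc arrays, 4.81 to 4.88 on the MYCi arrays and 4.82 to 4.93 on the DMSO arrays. Gsc, a homeobox gene of the organiser, was 2.26-fold lower in released than in DMSO cells (-1.18 ± 0.068). Eomes, of the same list, was highest with the inhibitor and averaged 7.27 in Resc, 9.42 in MYCi and 7.19 in DMSO cells. Of 13 endoderm markers, 0 rose and 5 fell, 1 rose and 0 fell, and 5 rose and 0 fell, with mean levels of 4.26 to 4.34 on the Resc arrays, 4.00 to 4.10 on the MYCi arrays and 4.26 to 4.30 on the DMSO arrays. The 9 neural crest markers had 1 call with the inhibitor (Ngfr, lower), 0 between released and DMSO cells and 1 between released and MYCi cells (Ngfr, higher), with mean levels of 4.36 to 4.38 on the Resc arrays, 4.22 to 4.30 on the MYCi arrays and 4.31 to 4.37 on the DMSO arrays. The 10 fibroblast and feeder markers had 2 falls with the inhibitor (Fbln1 and Thy1), 0 calls between released and DMSO cells, and 2 rises between released and MYCi cells (the same 2 genes), with mean levels of 4.19 to 4.23 on the Resc arrays, 3.96 to 4.05 on the MYCi arrays and 4.19 to 4.22 on the DMSO arrays. Of the 10 pluripotent stem cell markers, 2 rose and 5 fell with the inhibitor, 1 rose and 1 fell in released against DMSO cells, and 7 rose and 2 fell in released against MYCi cells. Beside these marker counts, 19.2% of all genes were called higher and 22.3% lower with the inhibitor. The shares were 4.66% and 4.01% in released against DMSO cells, and 22.7% and 19.2% in released against MYCi cells. The part of the marker levels in the results for the 9 genes was not tested.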

How the data were processed

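Total RNA of 8 mouse ESC samples was labelled with biotin and hybridised to Affymetrix GeneChip arrays, 1 per sample. The deposited values are log2 expression values made by the authors with RMA, which corrects the background and equalises the distributions of the arrays by quantile normalization; oligo 1.32.0, limma 3.2.15 and RMA are the tools listed in the submitters' processing notes. Values span 1.69 to 13.76, as fits a log2 scale. A change shared by most genes is not visible in such values.

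Of 45101 probe sets, 34945 have 1 symbol in the platform annotation, and of several for a gene the 1 with the highest mean was kept (18193 genes). Groups came from the sample titles. All 8 arrays entered 1 limma 3.58.1 fit (lmFit and eBayes, R 4.3.3) with a mean per group and 5 residual degrees of freedom, with two-sided p-values adjusted by Benjamini-Hochberg over all genes and a threshold of 0.05. No filter on level was applied. Precision is limited by having 2 or 3 arrays a group, and the median standard error over genes was 0.083, 0.074 and 0.083 for MYCi against DMSO, Resc against DMSO and Resc against MYCi. The fit was tested on simulated data.

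The 9 genes and all lists were chosen with earlier results of these data known. Named genes were the 9, up to 4 called genes per list and comparison with the smallest p, of which the text gives a selection, and the 3 genes most like each of the 3 most variable of the 9. Promoters are RefSeq's (GRCm38.p6), and no other coordinates were used. Python 3.11.15 with pandas 2.3.3, numpy 2.4.6 and matplotlib 3.10.9 read tables and drew figures. Alternatives were averaging probe sets, testing each probe set, leaving out genes in the lowest 30% by level, centring arrays on the median, quantile normalization again, array weights, a robust fit with a variance trend, only the arrays compared, the replicate number as a block, a threshold of 0.01, and each array left out.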

Additional observations from a re-analysis of the deposited data

How the results depend on the processing

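Over 18 alternatives each, the number of the 9 genes called stayed between 5 and 7 of 9 for MYCi against DMSO, at 4 for Resc against DMSO and between 5 and 6 for Resc against MYCi. Leaving out 1 array gave 5 to 6, 4 to 4 and 5 to 6. Some alternatives can change a call but not a difference. They are the level filter, the variance trend, the 0.01 threshold, only the arrays compared, and an array left out of the group not compared. The same holds for testing each probe set, where the kept probe set is read, and for averaging in genes with a single probe set. All of these alternatives count among the 495 single-gene values below. Of these 495 values, 462 kept direction and side of the threshold, 19 lost a call (14 of them Sox3 between Resc and MYCi), 4 gained one and 10 changed sign, all of differences that were not called. These 10 were Fgf5 for Resc against DMSO without Resc replicate 3 (-0.034) and for Resc against MYCi on the mean of probe sets (0.067), on its second probe set (0.21) and without Resc replicate 1 (0.0061), Hesx1 for Resc against MYCi with median centring (0.0048), repeated quantile normalization (0.0029) or without MYCi replicate 2 (0.00998) or Resc replicate 1 (0.0037), Sox3 for Resc against DMSO on its second probe set (-0.16), and Zic2 for Resc against DMSO without Resc replicate 1 (-0.031); the cause was not tested. Over all arrays left out in turn, these differences ran from -0.034 to 0.112 (Fgf5, Resc against DMSO), -0.140 to 0.0061 (Fgf5, Resc against MYCi), -0.101 to 0.00998 (Hesx1, Resc against MYCi) and -0.031 to 0.184 (Zic2, Resc against DMSO). Fst gained a call for MYCi against DMSO when its probe sets were averaged (-0.21; limma adjusted p = 0.0235). Sall2 lost its call for MYCi against DMSO at the 0.01 threshold, and gained a call for Resc against MYCi with only the arrays compared (limma adjusted p = 0.0396) and without DMSO replicate 1 (limma adjusted p = 0.0341). With the variance trend and robust fitting together the genes called between Resc and DMSO over all genes numbered 2641 instead of 1576, and at the 0.01 threshold 657. Leaving out 1 array gave 5931 to 7446 genes for MYCi against DMSO, 1000 to 1344 for Resc against DMSO (1000 without Resc replicate 2, 1008 without Resc replicate 1) and 6003 to 7637 for Resc against MYCi. Deviations of same-numbered arrays from the means of their groups, of 2 or 3 arrays each, correlated at -0.056 to 0.014. Whether the numbers pair the samples was not tested. With the replicate block 6826, 1180 and 6825 genes were called, and of the 9 genes 6, 4 and 5. With median centring the median of all genes for MYCi against DMSO was -0.106 instead of -0.058. Fgf5 lies below the 30th percentile of level and has no value under that filter. Leaving out 1 MYCi array leaves a lone array, assumed to vary like the other groups. Signal near the background limits Fgf5 and, on MYCi replicate 1, Pou3f1. Other named genes had low signal too, among them Bmp2, Foxd1, Thy1 and, on the MYCi arrays, Map2.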
